A study of Mus musculus with 47 samples.

Results

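The genes described here are 9 activity-dependent immediate early genes, Fos, Fosb, Junb, Egr1, Egr2, Egr3, Npas4, Nr4a1 and Arc, together with Nab2. They were taken by matching the Ensembl identifiers of both count tables to these symbols. The matching used no measured value, although the genes themselves were chosen with earlier results of these data known. All 10 were present among the 33139 genes of the brainstem table and the 31751 genes of the hippocampus table. The data comprised 47 poly(A)-selected RNA-seq libraries of male C57BL/6 mice at 12 months of age, 23 of brainstem and 24 of hippocampus. TG mice carried a human transgene under the Thy1 promoter, which is active in neurons of the central nervous system, and were kept as a homozygous colony. WT mice came from the same outcross and were kept as a parallel colony, so differences between the colonies other than the transgene cannot be told apart from it. Mice of both genotypes received a standard diet (SD) or a high-fat diet (HFD), which gave the groups WT-SD, WT-HFD, TG-SD and TG-HFD with 6 libraries each per region, except for 5 of WT-SD in brainstem.

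Immediate early genes are switched on within minutes when calcium entry and kinase cascades activate transcription factors already present in a neuron, such as CREB and SRF, and their transcripts are short-lived. Fos, Fosb and Junb encode subunits of the AP-1 transcription factor, Egr1, Egr2 and Egr3 encode zinc finger factors, and Npas4 and Nr4a1 encode further transcription factors. Arc encodes a synaptic protein that takes part in the removal of AMPA receptors. Nab2 encodes a co-repressor that binds EGR proteins and is itself induced by them. In brain tissue their level follows recent neuronal activity as well as handling before death, and in bulk tissue fewer expressing cells and less RNA per cell cannot be told apart.

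Total counts lay between 10020784 and 15078812 in brainstem and between 11945971 and 17328447 in hippocampus. Summed hippocampal tissue markers lay between 642 and 781 CPM (counts scaled to the TMM-normalised library size within a region) in hippocampus and between 63.2 and 110 CPM in brainstem, while only 1 of 6 medullary markers was listed in the hippocampus table, at no more than 0.505 CPM. Within a region, the p-values below measure the spread between libraries of different animals. Those between the regions come from a fit without a term for the animal. Libraries of both regions may come from the same mice, which the labels do not give, so that fit may treat related libraries as independent.

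The 250 bases before the RefSeq start site are shown for 4 genes that the results turn on, read 5′ to 3′ on the gene's strand. Fos and Nr4a1 are shown because their levels moved together between libraries, Junb because its groups separated in hippocampus, and Nab2 as the co-repressor. Capitals mark the CRE core TGACG, or CGTCA on the other strand, and the EGR site GCGGGGGCG, or CGCCCCCGC on the other strand. The coordinates are of the build GRCm38.p6.
Fos, chr12:85473640-85473889, plus strand: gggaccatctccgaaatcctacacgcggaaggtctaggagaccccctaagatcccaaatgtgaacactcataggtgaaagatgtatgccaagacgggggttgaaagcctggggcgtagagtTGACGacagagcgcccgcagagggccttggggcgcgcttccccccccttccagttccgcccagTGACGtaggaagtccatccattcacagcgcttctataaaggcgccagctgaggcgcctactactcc
Nr4a1, chr15:101266596-101266845, plus strand: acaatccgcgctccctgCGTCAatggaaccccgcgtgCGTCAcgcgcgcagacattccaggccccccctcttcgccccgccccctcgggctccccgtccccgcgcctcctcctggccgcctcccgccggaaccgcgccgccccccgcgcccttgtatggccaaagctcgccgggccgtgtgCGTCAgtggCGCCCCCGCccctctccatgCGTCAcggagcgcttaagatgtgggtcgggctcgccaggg
Junb, chr8:84978749-84978998, minus strand: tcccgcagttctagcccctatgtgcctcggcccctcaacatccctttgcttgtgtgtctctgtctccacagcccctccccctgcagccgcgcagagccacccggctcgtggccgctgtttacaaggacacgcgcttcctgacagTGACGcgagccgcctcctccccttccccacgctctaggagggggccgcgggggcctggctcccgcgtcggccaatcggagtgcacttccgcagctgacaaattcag
Nab2, chr10:127666704-127666953, minus strand: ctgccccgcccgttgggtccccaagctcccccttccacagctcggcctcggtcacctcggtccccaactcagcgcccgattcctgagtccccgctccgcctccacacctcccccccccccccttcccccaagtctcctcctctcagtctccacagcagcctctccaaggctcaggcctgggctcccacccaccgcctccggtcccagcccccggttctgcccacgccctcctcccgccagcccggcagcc

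The Fos window held 2 CRE cores, which began 129 and 66 bases before the start. The Nr4a1 window held 4 CRE cores and 1 EGR site, the latter beginning 60 bases before the start. The Junb window held 1 CRE core, and the Nab2 window held neither of these letters. Of 32851 RefSeq mouse promoter windows of the same length, 17.8% held the CRE core on either strand and 3.06% held GCGGGGGCG or GCGTGGGCG on either strand. The full CRE, TGACGTCA, which contains the core on both strands, was found in 1.55% of windows and in none of the windows of the 7 genes with an entry. The CArG box, the binding element of SRF, was found in 1.47% of windows, among them 4 of the 5 windows listed for Egr2. Several of these Egr2 windows overlap and hold the same CCATATATGG, so they are not separate sites. These matches are descriptions of letters in a window, not of binding.

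The genes differed widely in level, and 9 of 10 were higher in hippocampus. Per transcript length, the highest levels in hippocampus were those of Arc with 18.0 ± 5.1 RPKM (counts scaled to library size and exon length, SD, n = 24), Egr3 with 16.7 ± 1.76 RPKM and Egr1 with 14.3 ± 2.33 RPKM. The ranges of these 3 genes over libraries overlapped. Nr4a1 followed with 8.88 ± 2.15 RPKM, Junb with 6.25 ± 2.51 RPKM and Nab2 with 4.44 ± 0.779 RPKM, again with ranges that overlapped between neighbours. Fos stood at 1.16 ± 0.592 RPKM, and Fosb, Npas4 and Egr2 at 0.685 ± 0.134, 0.623 ± 0.238 and 0.22 ± 0.0974 RPKM.

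In brainstem the order was another. Arc was again highest at 6.7 ± 1.18 RPKM (SD, n = 23), followed by Egr1 at 3.65 ± 0.849 RPKM, Fos at 2.98 ± 1.11 RPKM and Nr4a1 at 1.52 ± 0.492 RPKM. Nab2 stood at 1.02 ± 0.186 RPKM and Junb at 0.753 ± 0.342 RPKM. Fosb, Egr3 and Npas4 lay close together at 0.232, 0.231 and 0.23 RPKM, with SDs of 0.0882, 0.0861 and 0.0796, and their ranges overlapped. Egr2 was lowest at 0.0466 ± 0.0405 RPKM, with 0 to 8 counts in a library.

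Egr3 showed the largest difference between the regions. Its level lay between 59.7 and 85.8 CPM in hippocampus and between 0.517 and 1.83 CPM in brainstem, with no overlap. The CPM values were normalised within each region, whereas the ratios come from a joint edgeR quasi-likelihood fit with a common normalisation, which did not use whether the libraries of both regions came from the same mice. In that fit Egr3 was 70.9-fold higher in hippocampus (log2 ratio 6.15 ± 0.068 SE, adjusted p = 1.01e-51). Junb was 8.13-fold higher (log2 ratio 3.02 ± 0.131 SE, adjusted p = 1.58e-26), with 5.8 to 28.3 CPM in hippocampus against 0.335 to 3.29 CPM in brainstem.

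Nr4a1, Nab2, Egr1 and Arc were 5.89-fold, 4.35-fold, 3.93-fold and 2.65-fold higher in hippocampus. Fos was the exception among the tested genes. It lay between 4.22 and 14.1 CPM in brainstem and between 1.38 and 6.71 CPM in hippocampus, and was 2.62-fold lower in hippocampus (log2 ratio -1.39 ± 0.138 SE, adjusted p = 5.01e-13). In all, 7 of 7 tested genes passed an adjusted p of 0.05 and an absolute log2 ratio of 0.3, where 60.2% of the 13458 genes of that fit did so. Of these, 6 were higher in hippocampus, against 29.2% of all genes. Egr3, Junb and Nab2, with mean counts of 12.9, 21.6 and 37.8 in brainstem, passed the filter on the mean count through hippocampus, and Fos, with 37.9 in hippocampus, passed it through brainstem, so these counts describe the genes that entered and nothing was read from them. Both counts were the same in each of the 4 groups taken alone, where 59.5% of all genes passed in WT-SD, 61.5% in WT-HFD, 60.8% in TG-SD and 58.6% in TG-HFD, and 28.9%, 29.9%, 29.3% and 28.3% were higher in hippocampus. Fosb, Egr2 and Npas4 entered only with a minimum total count of 50, with log2 ratios of 1.64 ± 0.0989, 2.24 ± 0.258 and 1.5 ± 0.141 SE. The regions are different tissues, and summed neuronal markers were 4387 to 5007 CPM in brainstem and 5624 to 6453 CPM in hippocampus, while summed oligodendrocyte markers were 11981 to 20360 CPM and 2756 to 4384 CPM. Their part in the region differences was not tested.

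**Figure D1:**
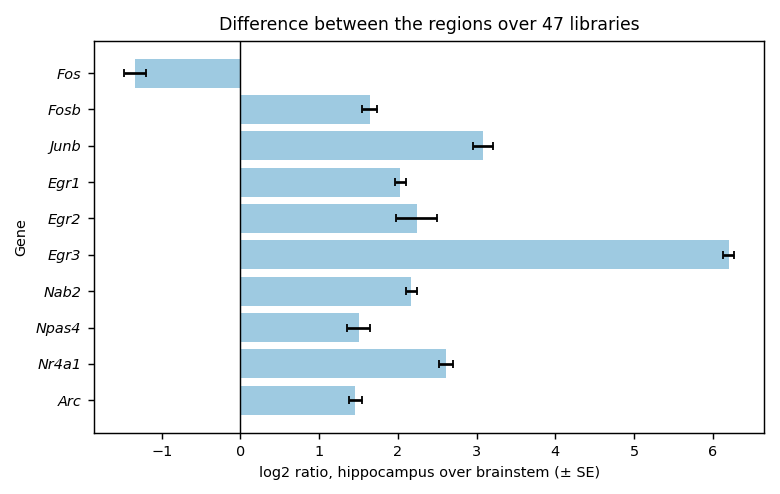
Log2 ratio of hippocampus over brainstem for the 10 genes (bars) with its SE, from the joint fit of genes with a total count of at least 50 over 47 libraries. Fos is the only gene below 0, and Egr3 has the largest ratio, 6.2 in this fit.

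The comparison of genotype and diet within hippocampus asked whether the genes responded to HFD and to the transgene. For all 7 genes that passed a mean count of 50, Fosb, Junb, Egr1, Egr3, Nab2, Nr4a1 and Arc, the highest mean CPM was in WT-HFD. The same held for 32.1% of all 13272 tested genes. In TG-HFD against WT-HFD, Egr3 passed the test and was lower, and it was the 1 gene of 7 to do so. Of all tested genes 0.226% passed in either direction and 0.173% were lower.

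The level of Egr3 in WT-HFD was 77.9 CPM in the lowest library, 82.4 at the median and 85.8 in the highest. In TG-HFD it was 61.5, 67.0 and 72.3 CPM, so that every TG-HFD library lay below every WT-HFD library. In WT-SD the values were 64.6, 71.2 and 77.9 CPM, and in TG-SD 59.7, 68.3 and 76.1 CPM. WT-HFD thus stood above the other groups, which overlapped with each other, although the lowest WT-HFD and the highest WT-SD library both round to 77.9 CPM. The fitted difference between TG-HFD and WT-HFD was -0.305 ± 0.063 SE on the log2 scale (adjusted p = 0.0191), which is close to the fold threshold of 0.3. The call was lost in 5 of 24 fits that each left out 1 library, which may be of any group because all groups share 1 model. Without TG-HFD replicate 8 the difference was -0.256 (adjusted p = 0.138), without TG-SD replicate 3 it was -0.278 (adjusted p = 0.0918), and without TG-SD replicate 7 it was -0.289 (adjusted p = 0.0635). Without WT-HFD replicate 7 it was -0.294 with an adjusted p of 0.0252, without WT-SD replicate 7 it was -0.295 with an adjusted p of 0.0257, and with DESeq2 it was -0.297 with an adjusted p of 0.00598, all 3 short of the fold threshold only.

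Between the diets in WT mice, Egr3 was the 1 gene of 7 whose WT-HFD libraries all lay above the WT-SD libraries, against 0.286% of all tested genes. Its log2 difference was 0.21 ± 0.0532 SE, and the adjusted p was 0.298. In TG mice the log2 difference between the diets was -0.05 ± 0.0458 SE with an adjusted p of 0.893. The interaction of genotype and diet was -0.27 ± 0.0718 SE for Egr3, with an unadjusted p of 0.000816 and an adjusted p of 0.492.

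Junb, an AP-1 subunit that dampens the activity of its partner Jun, also separated these groups. In WT-HFD the lowest library had 16.2 CPM, the median was 21.7 and the highest 28.3. In TG-HFD the values were 9.81, 10.5 and 12.4 CPM, in WT-SD 9.2, 13.9 and 16.7 CPM, and in TG-SD 5.8, 11.4 and 14.8 CPM. The TG-HFD and WT-HFD libraries did not overlap for Junb and Egr3, 2 of the 7 genes, where 3.41% of all tested genes were lower without overlap.

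The fitted difference of Junb depended on the model. With 4 surrogate variables, which absorb variation shared by many genes, it was -0.22 ± 0.127 SE on the log2 scale (adjusted p = 0.536). With none it was -0.996 ± 0.17 SE (adjusted p = 0.00136), and with a correction for GC content and no surrogate variables -0.64 ± 0.123 SE (adjusted p = 0.00702). The surrogate variables held 80.1% of the variance of Junb within groups, against 33.1% for Egr3 and a median of 47.1% over all tested genes. The transcript of Junb has 62.6% GC, the 99th percentile of the tested genes, and that of Egr3 has 51.3%, the 60.7th percentile. The slope of a library's log2 deviations from the mean library, per 10% of GC content, was -0.0197 to 0.173 in WT-HFD and -0.125 to 0.00523 in TG-HFD, with medians of 0.118 and -0.0554. Summed hippocampal tissue markers also did not overlap, with 717 to 781 CPM in WT-HFD and 660 to 710 CPM in TG-HFD, while summed neuronal markers did, with 5741 to 6176 and 5635 to 6147 CPM. The part of GC content and of tissue markers in these differences was not tested.

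**Figure D2:**
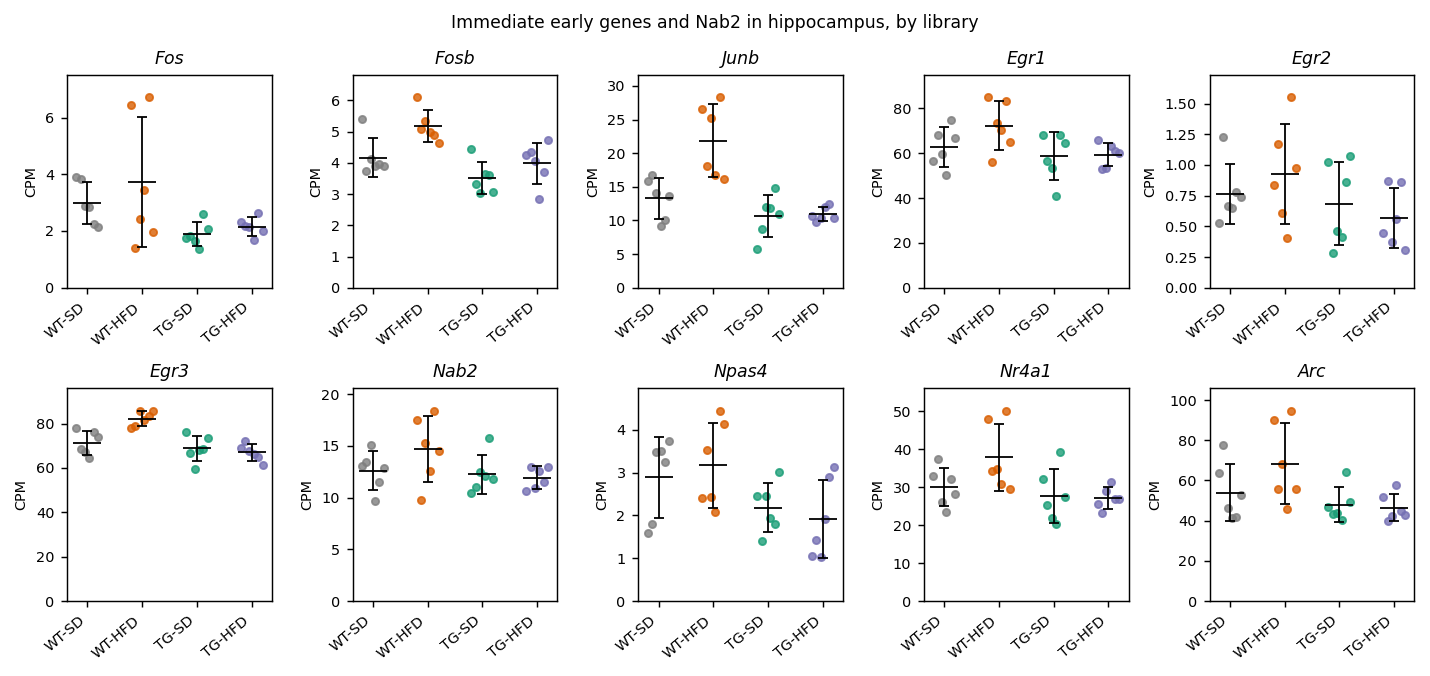
CPM of the 10 genes in each hippocampus library by group, with one point per library, and mean and SD in black. Egr3 and Junb in WT-HFD lie above every TG-HFD library, and Fos in WT-HFD spreads from 1.41 to 6.71 CPM.

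Nab2 did not pass the test in any hippocampal comparison. It had 9.77 CPM in the lowest WT-HFD library, 14.9 at the median and 18.4 in the highest, and 10.6, 12.1 and 13.0 CPM in TG-HFD, so these groups overlapped. In WT-SD the values were 9.65, 13.0 and 15.1 CPM and in TG-SD 10.4, 12 and 15.8 CPM. The log2 difference between TG-HFD and WT-HFD was 0.07 ± 0.138 SE with 4 surrogate variables (adjusted p = 0.904), -0.30 ± 0.122 SE with none (adjusted p = 0.139) and -0.04 ± 0.102 SE with the GC correction (adjusted p = 0.914), so that no direction can be given. Nab2 and Stat6 overlap at their 3′ ends on opposite strands in the GENCODE annotation of GRCm38, and how reads were assigned by strand is not given in the sources used here, so reads of both may be mixed. Stat6 lay between 5.01 and 7.96 CPM in WT-HFD and between 6.67 and 8.36 CPM in TG-HFD. Nab1, the related co-repressor, was at 27.3 ± 2.04 CPM (SD, n = 6) in WT-HFD and 27.8 ± 1.2 CPM (SD, n = 6) in TG-HFD.

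Nr4a1 lay between 29.5 and 50.2 CPM in WT-HFD with a median of 34.6, and between 23.1 and 31.5 CPM in TG-HFD with a median of 27.0. Arc lay between 45.8 and 94.7 CPM in WT-HFD with a median of 61.9, and between 39.6 and 57.5 CPM in TG-HFD with a median of 43.8. Both overlapped between these groups. Their log2 differences were -0.21 ± 0.138 SE (adjusted p = 0.606) and -0.12 ± 0.154 SE (adjusted p = 0.82) with 4 surrogate variables. With none they were -0.48 ± 0.143 SE (adjusted p = 0.0384) and -0.56 ± 0.161 SE (adjusted p = 0.0317), in a fit where 3.88% of all genes passed. In that fit Junb, Nr4a1 and Arc were the 3 genes of 7 that passed, while Egr3 had an adjusted p of 0.00228 and a log2 difference of -0.296, just under the fold threshold. With the GC correction Junb was the 1 gene of 7 that passed, where 0.738% of all genes did.

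Egr1 had 56.3 CPM in the lowest WT-HFD library, 71.8 at the median and 84.9 in the highest, against 52.8, 60.4 and 65.8 CPM in TG-HFD. Its log2 difference was -0.24 ± 0.118 SE, with an unadjusted p of 0.0492 and an adjusted p of 0.436. Fosb, at 4.64 to 6.1 CPM in WT-HFD and 2.85 to 4.75 CPM in TG-HFD, had a log2 difference of -0.30 ± 0.166 SE and an adjusted p of 0.515. Neither passed the test, and an unadjusted p of 0.05 was reached by 2 of the 7 genes, Egr3 and Egr1, against 11.3% of all genes.

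Fos, Npas4 and Egr2 had mean counts of 37.9, 36.5 and 10.6 in hippocampus and did not reach the filter. In WT-HFD, Fos ranged from 1.41 to 6.71 CPM with a median of 2.95, and in TG-HFD from 1.67 to 2.65 CPM with a median of 2.16. Npas4 ranged from 2.09 to 4.45 CPM in WT-HFD and from 1.04 to 3.14 CPM in TG-HFD. With a minimum total count of 50, the log2 difference of Npas4 between TG-HFD and WT-HFD was -0.73 ± 0.271 SE (adjusted p = 0.31), and that of Fos was -0.22 ± 0.312 SE (adjusted p = 0.885).

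**Figure D3:**
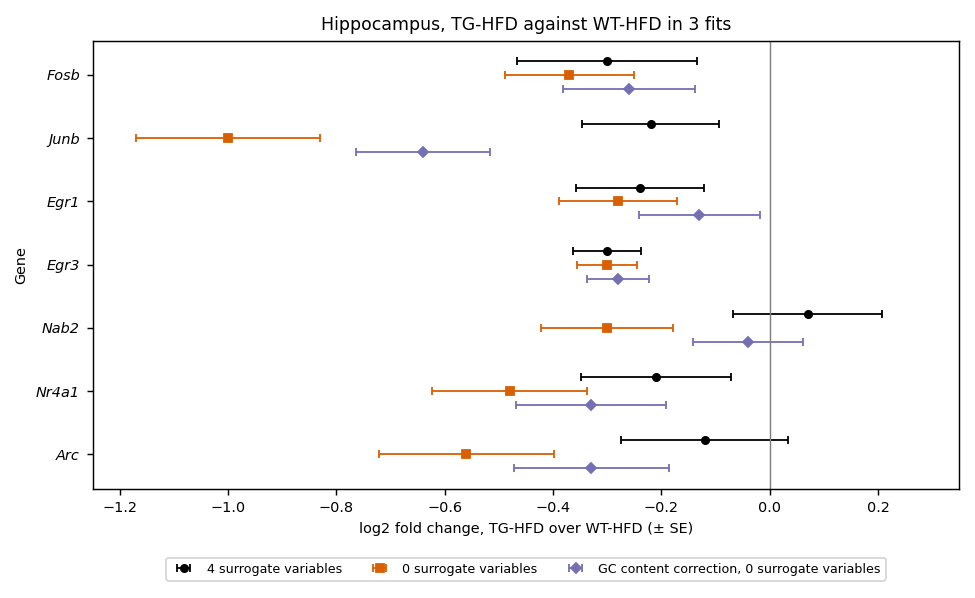
Log2 fold change of TG-HFD over WT-HFD in hippocampus with its SE for the 7 tested genes, in fits with 4 surrogate variables, with none, and with a GC content correction. The 3 values of Egr3 lie between -0.305 and -0.281, while those of Junb spread from -0.22 to -0.996 and those of Nab2 lie on both sides of 0.

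In the other hippocampal comparisons no gene of the 7 passed. Between TG-SD and WT-SD, log2 differences lay between -0.16 and 0.03, with a lowest adjusted p of 0.762, where 0.0904% of all genes passed. Between the diets in TG mice they lay between -0.05 and 0.15, with a lowest adjusted p of 0.825, where 0% of all genes passed. An unadjusted p of 0.05 was reached by 0 genes in both comparisons, against 9.08% and 7.08% of all genes, by 2 genes between the diets in WT mice, Egr3 and Junb (0.25 ± 0.103 SE, adjusted p = 0.721), against 6.4%, and by 1 for the interaction, Egr3, against 5.98%. DESeq2 also called 0 of the genes in these 4 comparisons, although it gave none of them an adjusted p for TG-SD against WT-SD and for the interaction.

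The wider programme was described by 7 lists of immediate early, delayed activity-regulated and upstream signalling genes, of which 64 genes outside the 10 were tested in hippocampus. In TG-HFD against WT-HFD, 0 of these rose and 1 fell with 4 surrogate variables, where 0.173% of all tested genes fell. The gene that fell was Nptx2, a neuronal pentraxin that gathers AMPA receptors at synapses, with a log2 difference of -0.49 ± 0.097 SE (adjusted p = 0.0158). Penk, which encodes proenkephalin, had a log2 difference of -0.55 ± 0.138 SE (adjusted p = 0.0729), and Egr4, the fourth EGR factor, -0.52 ± 0.169 SE (adjusted p = 0.192). Mapk3, which encodes the kinase ERK1, had 0.16 ± 0.0489 SE (adjusted p = 0.154). With no surrogate variables 8 of the 64 fell, where 3.56% of all genes did. These were Egr4, Jund, Nptx2, Penk, Srf, Vgf, Map2k2 and Mrtfa, with log2 differences from -0.97 for Egr4 to -0.32 for Mrtfa. With the GC correction 2 fell, Nptx2 and Penk, where 0.535% of all genes did. The median log2 difference of the 64 genes was -0.04 with 4 surrogate variables, -0.11 with none and -0.05 with the GC correction. That of all tested genes was -0.01, 0 and 0 in the same order. In the other hippocampal comparisons 0 of the 64 passed. The genes of lowest p were Pcsk1, a prohormone convertase, for TG-SD against WT-SD with 0.20 ± 0.0595 SE (adjusted p = 0.239), and Inhba, an activin subunit, for the diets in WT mice with 0.39 ± 0.143 SE (adjusted p = 0.72). For the diets in TG mice it was Ptgs2, an inducible cyclooxygenase, with -0.21 ± 0.0676 SE (adjusted p = 0.417), and for the interaction Nptx2 with -0.38 ± 0.111 SE (adjusted p = 0.602).

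In brainstem, Fos, Egr1, Nr4a1 and Arc passed the filter, and 0 of these 4 passed the edgeR test in any comparison. The shares of all 13340 tested genes that passed were 0.142% for TG-SD against WT-SD, 0.0525% for TG-HFD against WT-HFD, 0% for the diets in WT mice, and 0.0075% each for the diets in TG mice and for the interaction. None of the 4 genes reached an unadjusted p of 0.05 in these comparisons, which 10.5%, 5.59%, 5.43%, 6.91% and 4.83% of all genes did in the same order, and DESeq2 called 0, with no adjusted p for some of them.

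The level of Fos in the 5 WT-SD libraries was 5.29, 6.02, 6.45, 6.85 and 10.2 CPM. In WT-HFD it was 5.05 CPM in the lowest library, 7.61 at the median and 14.1 in the highest, in TG-SD 4.22, 5.0 and 8.71 CPM, and in TG-HFD 5.78, 6.31 and 9.64 CPM. All 4 groups overlapped. No pair of groups was without overlap for any of the 4 genes in the 4 pairwise comparisons, where 0.172% to 0.682% of all tested genes were. The largest log2 differences of the 4 genes were those of Nr4a1 between TG-HFD and WT-HFD, at -0.39 ± 0.251 SE (adjusted p = 0.949), and of Egr1 between the diets in WT mice, at 0.36 ± 0.176 SE (adjusted p = 0.921), apart from the Nr4a1 interaction of -0.44 ± 0.326 SE (adjusted p = 0.993). All 4 genes had their highest mean CPM in WT-HFD, as did 30.7% of all tested genes. Of 58 genes of the wider lists tested in brainstem, 0 passed in any comparison. The lowest adjusted p among them was 0.14, for Ier5 between TG-SD and WT-SD (0.34 ± 0.0934 SE).

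**Figure D4:**
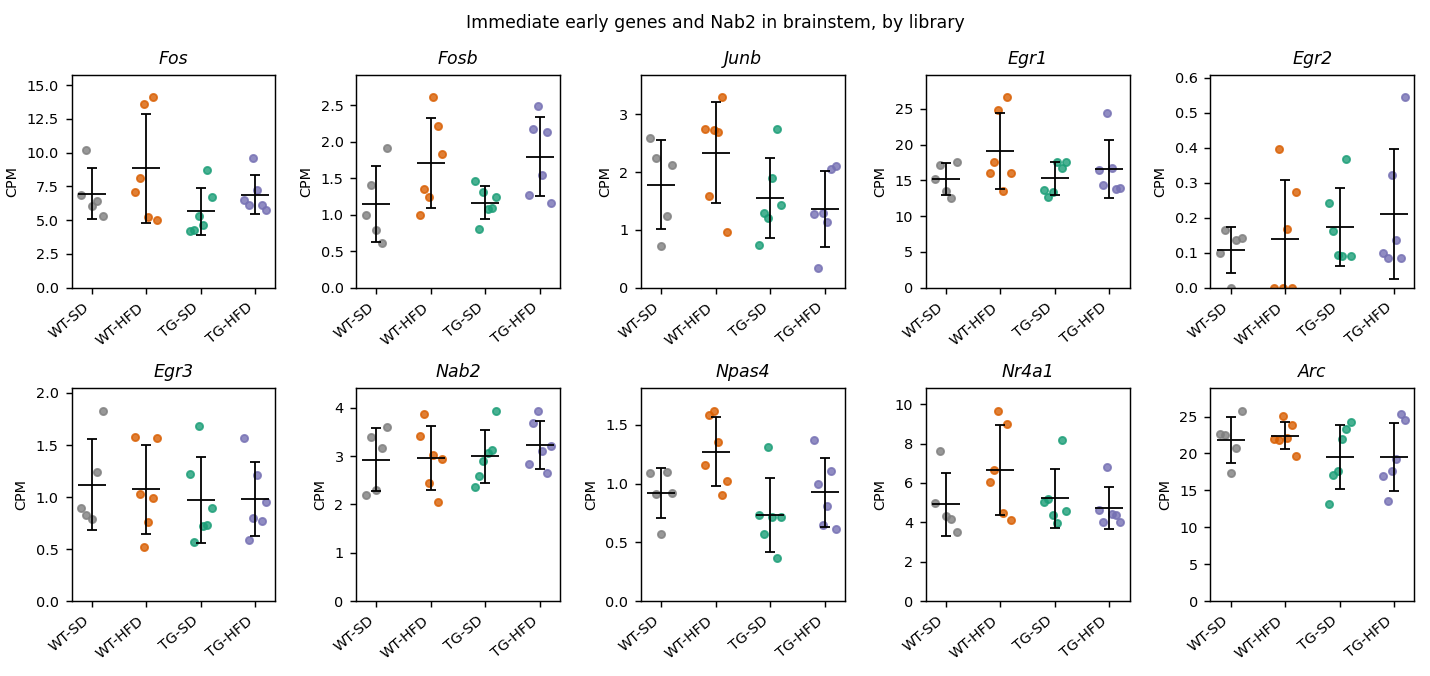
CPM of the 10 genes in each brainstem library by group, with one point per library, and mean and SD in black. The groups overlap for every gene that was tested, and 2 WT-HFD libraries have the highest Fos, at 13.6 and 14.1 CPM.

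The difference between the regions in each genotype or diet effect was tested in the joint fit, and 0 of 7 genes passed for any of them, where at most 0.00743% of all genes did. For TG-HFD against WT-HFD the hippocampal effect minus the brainstem effect lay between -0.43 and 0.02 on the log2 scale, with SEs of 0.197 to 0.393, and 1 gene reached an unadjusted p of 0.05, as did 5.65% of all genes. That gene was Nab2, with -0.43 ± 0.207 SE (unadjusted p = 0.0427, adjusted p = 0.856). For Egr3 this difference was -0.15 ± 0.264 SE (adjusted p = 0.93), so the effect in hippocampus was not shown to differ from that in brainstem, where Egr3 had 7 to 26 counts in a library.

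Several genes varied more between libraries of a group than most genes did. The biological coefficient of variation of Fos in brainstem was 0.269, the 99.1th percentile of all tested genes, and that of Nr4a1 0.238, the 98.7th percentile. In hippocampus it was 0.197 for Junb, 0.191 for Arc and 0.167 for Nr4a1, at the percentiles 98.9, 98.7 and 97.7. Fosb and Egr3 were the exceptions there, with 0.0875 at the percentile 62.2 and 0.0637 at the percentile 27.4, against a median of 0.0777. These coefficients come from the fit with 0 surrogate variables.

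Some genes rose and fell together between libraries of the same group. For 8 pairs in each region, log2 CPM was taken as the deviation from the group mean, and p was obtained from 100000 permutations within groups and adjusted over the 16 relations. In brainstem, Fos and Nr4a1 had a Pearson r of 0.9 (permutation p = 5e-05, adjusted p = 0.0008) and a Spearman rho of 0.747 (permutation p = 0.00055, adjusted p = 0.0088) over 23 libraries. Fos and Egr1 had an r of 0.779 (permutation p = 0.00034, adjusted p = 0.00272) and a rho of 0.625 (permutation p = 0.00463, adjusted p = 0.037). Without the 2 libraries farthest from the median of Fos, WT-HFD replicates 3 and 7, r was 0.874 and 0.677.

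In hippocampus, Fos and Arc had an r of 0.63 (permutation p = 0.0112, adjusted p = 0.0447) and a rho of 0.558 (permutation p = 0.0234, adjusted p = 0.0936) over 24 libraries, and Fos and Nr4a1 an r of 0.603 (permutation p = 0.00701, adjusted p = 0.0374) and a rho of 0.575 (permutation p = 0.0127, adjusted p = 0.0677). Without WT-HFD replicates 4 and 7, r was 0.557 and 0.58. The remaining 12 pairs had an adjusted p of r above 0.05. Egr1 and Nab2, an inducer and its co-repressor, had an r of 0.429 in hippocampus (permutation p = 0.0642, adjusted p = 0.128) and of 0.042 in brainstem (permutation p = 0.866, adjusted p = 0.923). Counts of Fos were low in hippocampus, and all pairs share the library and its depth.

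**Figure D5:**
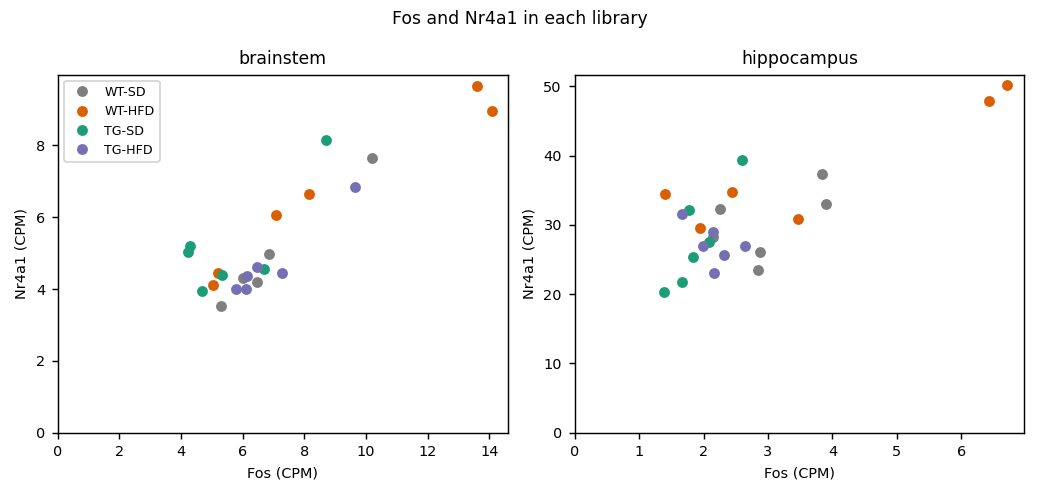
CPM of Nr4a1 against CPM of Fos, with one point per library and colours for the 4 groups, in brainstem and hippocampus. In both regions 2 WT-HFD libraries have the highest values of both genes. The WT-HFD libraries with the highest mean deviation of the tested genes carry the replicate numbers 3 and 7 in both regions. The highest in both regions was also replicate 7 in TG-SD and replicate 4 in WT-SD. In TG-HFD it was replicate 4 in brainstem and replicate 6 in hippocampus. Whether equal numbers mark the same mouse is not given, so the regions may not be independent here.

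Among the other tested genes, those with a pattern most like Fos in brainstem, by Pearson r of deviations from group means over 23 libraries, were Sik1 (0.764), 9130023H24Rik (0.735) and Ecd (0.723). For Arc in brainstem they were Gm13050 (0.947), Eef2 (0.944) and Scaf1 (0.943), and for Egr1 an unnamed gene (0.712), Gm9174 (0.687) and Prkrip1 (0.664). In hippocampus, over 24 libraries, they were Pid1 (0.774), Dusp6 (0.763) and Sec14l1 (0.763) for Egr1, and Lrrc24 (0.815), Per1 (0.783) and Mapk7 (0.773) for Arc. For Nab2 in hippocampus they were Taf1c (0.831), E130309D02Rik (0.785) and Shmt2 (0.767). All were picked as the highest values among 13336 genes compared in brainstem and 13265 in hippocampus. Picking the highest of so many values raises them by an amount that was not estimated, and none of these relations was tested. The surrogate variables held 85.7% of the variance of Arc within groups in brainstem, against 15.0% for Fos and 9.25% for Egr1.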

How the data were processed

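RNA was sequenced from brainstem and hippocampus, and the authors assessed reads with FastQC 0.11.9 and aligned them with STAR 2.7.9a to the mouse genome with the sequence of the human transgene added. The deposited values are raw counts of reads per gene and library, and the counting tool and its strand setting are not given in the sources used here. Groups and replicate numbers came from the sample labels, and all 47 libraries were used.

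Counts were normalised by TMM, and genes whose counts averaged 50 or more in a region entered the quasi-likelihood test of edgeR 4.0.16 (R 4.3.3), with the 4 groups and 4 surrogate variables of sva 3.50.0 in 1 model. A gene passed at an adjusted p (Benjamini-Hochberg, all tested genes) of 0.05 or less and a log2 change of 0.3 or more in either direction. The SE of a log2 change was its size divided by the square root of the F statistic. The regions were compared in a joint fit without surrogate variables. The 10 genes, the lists and the tests were chosen with earlier results of these data known. All 10 genes are named. List genes that passed are named, with up to 4 of the lowest p-values of a contrast, and Nab1, Egr4 and Stat6 are always named. A further gene of that rule is not reported here. Log2 CPM used a prior count of 2. RPKM used exon lengths from GENCODE (GRCm38), joined on the Ensembl gene identifiers. Correlations used numpy 2.4.6 with Python 3.11.15, and figures matplotlib 3.10.9. Promoter windows are from RefSeq. The edgeR fits and permutation tests were tested on simulated data. Alternatives were DESeq2 1.42.0, RLE normalisation, 0 or 2 surrogate variables, other filters, a GC content correction (loess, span 0.3), a replicate block, only the 2 groups compared, no fold threshold, and each library left out.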

Additional observations from a re-analysis of the deposited data

Results flagged for a closer look

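In 80 combinations of gene, region and group, the highest or the lowest library was checked for a gap to the nearest library above Dixon's 95% critical value, 0.625 for 6 libraries, which chance alone exceeds in about 1 of 20 groups. The check marked 5 combinations, each for the highest library. Brainstem TG-HFD replicate 4 stood apart for Egr1, with 24.4 CPM against 16.8 CPM in the next library, and for Nr4a1, with 6.83 against 4.6 CPM. Brainstem TG-SD replicate 7 stood apart for Nr4a1, with 8.16 against 5.19 CPM. In hippocampus, WT-SD replicate 3 stood apart for Fosb, with 5.41 against 4.14 CPM, and WT-SD replicate 4 for Egr2, with 1.23 against 0.776 CPM.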

How the results depend on the processing

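For TG-HFD against WT-HFD in hippocampus, 1 of 7 genes passed (Egr3), and the count was 0 with DESeq2 and with RLE normalisation, 3 (Junb, Nr4a1 and Arc) with 0 surrogate variables and with only the 2 groups compared, and 4 (these and Fosb) with 2 surrogate variables, so Egr3 was in none of these sets. Leaving out 1 library gave 0 to 1, with 0 without TG-HFD replicate 8, WT-HFD replicate 7, TG-SD replicate 3 or 7, or WT-SD replicate 7. Within hippocampus, correlations of deviations by replicate number were -0.0937 to 0.299 for TG-HFD and WT-HFD. Between the diets they were -0.0299 to 0.332 in WT mice and -0.0768 to 0.377 in TG mice. The best match carried the own number for 1, 3 and 1 of 6 numbers in these comparisons. Pairing by replicate number within hippocampus was thus not settled. Whether equal numbers mark the same mouse in both regions was not tested. With the replicate block the count was 1, and with the block and 0 surrogate variables 4 (Fosb, Junb, Nr4a1 and Arc). For WT-HFD against WT-SD in hippocampus the count was 0, and 1 (Junb) with 2 surrogate variables. The log2 difference of Nab2 between TG-HFD and WT-HFD, 0.067, turned to -0.298 with 0 or 2 surrogate variables and with only the 2 groups compared, -0.285 with the block and 0 surrogate variables, -0.041 with the GC correction and -0.036 without WT-HFD replicate 4, in a range up to 0.192 over the libraries left out. Leaving out 1 library also turned Arc, -0.12, in a range from -0.189 to 0.056 (positive without TG-HFD replicate 8, TG-SD replicate 3, or WT-SD replicate 3 or 6), Nr4a1, -0.21, from -0.26 to 0.045 (positive without TG-SD replicate 3 or WT-SD replicate 3), and Egr1, -0.24, from -0.311 to 0.001 (positive without WT-SD replicate 3). Of 16 relations, 4 had an adjusted p of r of at most 0.05. After GC correction only the 5 relations whose genes both passed the filter could be computed, and 2 reached this, adjusted over 5. Before the correction, Fos with Egr1 and Fos with Nr4a1 in brainstem were those of these 5 that reached it. Fos with Arc and Fos with Nr4a1 in hippocampus were not among the 5. The causes were not tested. The other 394 alternative values of these counts stayed within 1.5 times, which concerns the count and not the gene called. With the GC correction the count for TG-HFD against WT-HFD in hippocampus was also 1, but the gene was Junb and not Egr3. Many of these values compared 0 with 0, as in brainstem. Depth limits the genes below the filter in brainstem. Their means were 2.04 counts for Egr2, 12 for Npas4, 12.9 for Egr3, 18.3 for Fosb, 21.6 for Junb and 37.8 for Nab2.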
